A study of Homo sapiens with 2 samples.

Results

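Broad mERG peaks are those of 1000 bp or more in a list of ChIP peaks for methylated ERG in VCaP cells. They were selected on width alone, the distance from the first to the last base of each peak, and 1043 of the 18070 peaks of the list met the limit (5.77%, Wilson 95% interval 5.44% to 6.12%). The other 17027 peaks are called narrow here. VCaP cells come from a prostate cancer metastasis and express ERG from a TMPRSS2-ERG fusion. The data collected were 1 ChIP library made with an antibody raised against ERG mono-methylated at a lysine (mERG) and 1 control library, which the labels call both input and IgG. The list of peaks is the authors' own, so no value has a replicate and the read depth cannot be read from it. Intervals below cover counting error only, and peaks that lie side by side are not independent of each other.

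ERG belongs to the ETS family of transcription factors, which share a winged helix-turn-helix domain that binds DNA around the core GGAA. In prostate cancer the fusion places ERG under the androgen-responsive TMPRSS2 promoter, and ERG then acts at enhancers and promoters together with the androgen receptor and chromatin regulators. EZH2, the methyltransferase of the Polycomb repressive complex PRC2, can also methylate proteins other than histones, ERG among them. A transcription factor bound at a single short site usually gives a narrow ChIP peak, while broad peaks are more often seen for histone marks and for proteins that spread over a region or a gene.

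The sequence at the centre of 5 strong broad peaks is shown because it is where a bound core would be looked for first. The lines give the central 120 bases of broad peaks from among the 10 with the highest scores, leaving out 1 that outranks the last 3, on the plus strand of GRCh37 (hg19), and capitals mark each GGAA on either strand. The peaks are at chr6:20476407-20486476 (named for CDKAL1, but inside E2F3 and centred on an exon), chr11:63451806-63464354 (the first intron of RTN3), chr11:63425515-63432191 (the first intron of ATL3), chr17:44249635-44252701 (an intron of KANSL1) and chr11:66928085-66935803 (an intron of KDM2A). The bases shown are chr6:20481382-20481501, chr11:63458021-63458140, chr11:63428794-63428913, chr17:44251109-44251228 and chr11:66931885-66932004.
CDKAL1: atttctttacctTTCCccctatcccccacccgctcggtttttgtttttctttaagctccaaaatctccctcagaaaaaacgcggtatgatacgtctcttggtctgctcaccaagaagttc
RTN3: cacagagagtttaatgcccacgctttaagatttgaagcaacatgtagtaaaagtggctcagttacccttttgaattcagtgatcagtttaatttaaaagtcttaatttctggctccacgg
ATL3: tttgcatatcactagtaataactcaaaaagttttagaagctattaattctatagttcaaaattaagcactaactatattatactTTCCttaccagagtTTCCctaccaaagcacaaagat
KANSL1: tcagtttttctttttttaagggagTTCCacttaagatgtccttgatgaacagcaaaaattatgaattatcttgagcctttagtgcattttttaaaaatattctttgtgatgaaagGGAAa
KDM2A: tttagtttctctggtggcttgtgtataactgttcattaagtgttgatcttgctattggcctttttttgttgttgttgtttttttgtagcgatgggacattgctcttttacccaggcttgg
The CDKAL1-named centre held 1 GGAA, the ATL3 and KANSL1 centres held 2 each, and the RTN3 and KDM2A centres held 0. Over its whole width of 10070 bp the CDKAL1-named peak held 104 GGAA (10.3 per kb), and the RTN3 peak of 12549 bp held 78 (6.22 per kb). The longer ETS word CCGGAAGT was in none of these 5 peaks on either strand.

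GGAA was about as dense in broad peaks as in narrow ones. The median was 9.59 GGAA per kb in the 1038 broad peaks on sequences of the reference (95% interval 9.31 to 9.77) and 9.29 in 16999 narrow peaks, counting both strands. Windows of the same width 2 kb beside the broad peaks had a median of 9.33. In the central 200 bp, 83.2% of broad peaks and 83.7% of narrow peaks held at least 1 GGAA. All 1038 broad peaks held GGAA somewhere, which their length alone makes likely, as did 99.9% of the windows beside them. CCGGAAGT, which contains GGAA, was found in 8 of the 1038 broad peaks (0.771%, interval 0.391% to 1.51%), in 1.35% of the windows beside them, and in the central 200 bp of 0 of them. Per Mb it occurred 4.15 times in broad and 3.33 times in narrow peaks. A match is a description of the sequence and not a binding site.

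Broad peaks were poorer in G and C than the sequence beside them. Their median GC content was 39.4% (interval 39.2% to 39.7%) against 41.5% in the windows of the same width and 38.8% in narrow peaks. Of the 691 broad peaks with a free window, 453 had a lower GC content than their own windows (65.6%, interval 61.9% to 69.0%), by a median of -1.82 percentage points. Narrow peaks showed the same direction in 58.3% of 16388. CpG dinucleotides followed this order, with a median of 7.69 per kb in broad peaks, 6.29 in narrow peaks and 9.89 in the windows beside the broad ones. The centre of 58.6% of broad peaks lay outside annotated repeats, against 57.6% of narrow peaks. LINE elements held 16.6% of broad centres and SINE elements 15.6%, and the intervals of the differences from narrow peaks included 0 for both.

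Most broad peaks were only just broad. The median width was 1344 bp, 623 of the 1043 (59.7%) were under 1500 bp, 246 reached 2000 bp, 46 reached 5000 bp and 6 reached 10 kb. Although they were 5.77% of peaks, they held 21.2% of all bases in peaks. Just inside the limit were a peak of 1000 bp named for LINC01554 with a score of 40.3, and peaks of 1001 bp in NAAA (score 78.3) and NSD3 (score 41.0). Just outside, at 999 bp, were peaks in TBC1D2B (score 83.5), TPD52 (score 36.99) and EED (score 83.4), the PRC2 subunit that binds methylated H3K27, and 1 named for ASAP1-IT2 (score 84.8). All 7 of these peaks were intronic.

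The score is the value the authors' peak caller gave each peak, and since it comes from the same call as the width it only describes the members. No header states its scale. The median score was 77.3 for broad peaks (interval 75.1 to 80.7) and 40.3 for narrow ones, whose highest was 147, in SLK. The 100 highest scores of the list all belonged to broad peaks. Across all 18070 peaks Spearman's rho of width and score was 0.575, and within the 1043 broad peaks it was 0.403. Some broad peaks had low scores, however, with 183 under 50 and 67 under 40. At scores under 40, 0.799% of 8388 peaks were broad, against 86.8% of 403 at scores of 100 or more. A peak of 8880 bp named for LINC00676, in intergenic sequence at chr13:110213903-110222782, scored 38.5. RAB20, a small GTPase of endosomal traffic, held a peak of 10827 bp in its intron at chr13:111194302-111205128 with a score of 64.5.

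**Figure D1:**
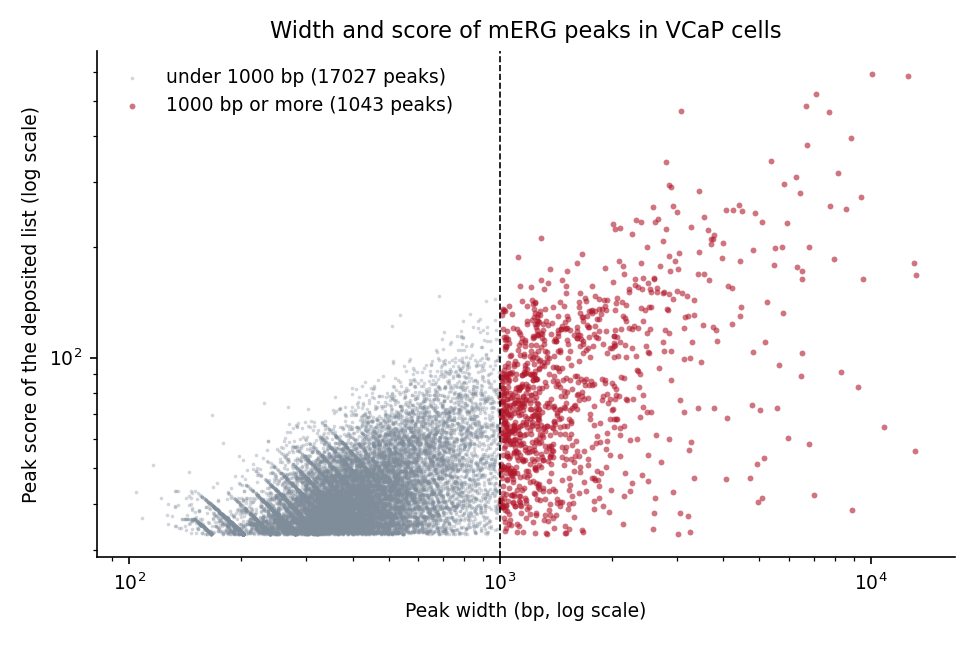
Each point is 1 peak of the list, with its width in bp on the x axis and its score on the y axis, both on log scales; red points are the 1043 broad peaks and grey points the 17027 narrow ones. Scores rise with width (rho 0.575), and wide peaks with scores under 50 stand at the lower right.

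The 10 widest peaks were named for 7 genes, RTN3, ARHGEF7, MARK2, RAB20, CDKAL1, E2F3 and LINC00676. RTN3, a reticulon that shapes tubules of the endoplasmic reticulum, held the widest, of 13207 bp, and another of 12549 bp. ARHGEF7, an exchange factor for Rac, held peaks of 13122 and 9410 bp. MARK2, a kinase of microtubule-associated proteins and cell polarity, held 1 of 13089 bp in its first intron. E2F3, a cell cycle transcription factor, held 1 of 9206 bp under its own name, and the peak with the highest score of all also lay within its body although the nearest start site was that of CDKAL1, a tRNA-modifying enzyme. The other high scores were in RTN3 (586 and 378), NBN, a DNA break sensor (523), ATL3, a GTPase that fuses tubules of the endoplasmic reticulum (485), KANSL1, a scaffold of the NSL acetyltransferase complex (469), KDM2A, an H3K36 demethylase (465), TACC1, a centrosomal protein (395), KMT5B, an H4K20 methyltransferase (343) and CSNK2A1, the catalytic subunit of casein kinase II (340).

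Broad peaks were gathered on a few chromosomes. Chromosomes 17, 8, 5, 11 and 9 held 721 of the 1043 broad peaks (69.1%, interval 66.3% to 71.9%) and 31.6% of the narrow ones. On chromosome 17, 198 of 1239 peaks were broad (16.0%, interval 14.0% to 18.1%), and on chromosome 11, 124 of 986 (12.6%). Chromosome 3 had more peaks, 1475, but only 13 broad ones (0.881%), and chromosome 2 had 2 of 883. Chromosomes 10, 14, 16, 18 and X together held 944 peaks and 0 broad ones. For chromosome 10, with 394 peaks, the interval reaches up to 0.966%.

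Among the chromosomes compared here the median score differed little. The median score of all peaks was 43.8 on chromosome 17, 41.8 on chromosome 11 and 40.5 on chromosome 6, beside 40.7 on chromosome 3 and 41.6 on chromosome 20. Among peaks with a score of at least 50, 39.4% were broad on chromosome 17 and 39.6% on chromosome 6, against 3.92% on chromosome 3 and 3.38% on chromosome 20. For scores of 60 to 80, the share was 33.1% of 160 peaks on chromosome 17, 40.7% of 54 on chromosome 6 and 2.80% of 107 on chromosome 3, and 0 of 89 were broad on chromosome 20 (upper bound 4.14%). In that band, peaks of like score were more often wide on some chromosomes than on others. At scores of 100 or more the contrast was smaller as a ratio but not in percentage points. There, 91.0% of 67 peaks were broad on chromosome 17, 6 of 12 on chromosome 3 and 5 of 10 on chromosome 20. The peaks of at least 50 also mix scores, since chromosome 17 has more of them at 100 or above. The list holds no read coverage of either library, and what sets these chromosomes apart was not tested.

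Within these chromosomes the broad peaks lay in runs. When neighbouring broad peaks within 1 Mb of each other were joined, they formed 137 runs, of which 63 held 1 broad peak and 26 held at least 10. The 26 long runs held 811 broad peaks (77.8%, interval 75.1% to 80.2%) on 10 chromosomes, in 35.04 Mb or 1.15% of chromosomes 1 to 22 and X. The same spans also held 1636 of the 17027 narrow peaks. Long runs were defined by their number of broad peaks, so a high share of broad peaks in them follows in part from the rule. The largest, at chr17:25627758-31154470, held 100 broad peaks among 459 and spans NLK, TAOK1, SSH2 and NF1, the Ras GTPase-activating tumor suppressor. The next, at chr11:64958322-68315029, held 98 among 148, in PACS1, KDM2A, CHKA and KMT5B. At chr9:111629459-113014997, 70 of 134 peaks were broad, around CTNNAL1, TMEM245 and PTPN3.

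Narrow peaks inside the long runs were wider than those elsewhere, although the rule kept all of them under 1000 bp. Their median width was 631 bp (interval 616 to 646) in the runs and 372 bp (interval 369 to 375) outside, at median scores of 42.5 and 40.1. The broad peaks within the runs had a median width of 1418 bp and a median score of 74.8. The 232 broad peaks outside had a lower median width, 1169 bp, but a higher median score, 88.1. The runs were drawn around broad peaks, so that 33.1% of the peaks in them were broad and 1.48% elsewhere follows from how they were made.

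In 3 of the long runs every peak was broad. They held 70 broad peaks, among them all of the 10 widest and 28 of the 46 of at least 5000 bp. The run at chr11:63341696-63649430 had 18 peaks with a median width of 6533 bp, none under 1846 bp, and they covered 38.7% of its 308 kb. The run at chr6:20202521-20757118 had 26 peaks with a median width of 3319 bp, and that at chr13:108880420-111943507 had 26 with a median of 3279 bp. Their lowest scores were 41.5, 34.7 and 33.2. These runs were picked because all their peaks are broad, so the width of their weak peaks follows from the choice.

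The edge of such a run can fall inside a gene. In CDKAL1, the peaks from just past its start up to chr6:20757118 were 2244 bp or wider, while the next peak in the same gene, 152 kb downstream, was 183 bp wide with a score of 35.3. Its last broad neighbours scored 37.7 and 60.2. The peak before the chromosome 13 run was 178 bp wide and lay 832 kb upstream of it. The peak before the chromosome 11 run, 3792 kb away in STX3, was 405 bp wide with a score of 54.0. Other edges were less sharp, since the peak after the chromosome 11 run was 875 bp wide, and the peak before the chromosome 6 run, 8974 kb away in NEDD9, was itself broad (2355 bp).

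Broad peaks had close neighbours, narrow or broad. The median gap from the end of a broad peak to the start of the next peak was 1289 bp (interval 1054 to 1513), against 8695 bp for narrow peaks, and it was shorter for broad peaks on each of the 14 chromosomes with at least 10 of them. The gap was at most 1 kb for 46.4% of broad and 16.4% of narrow peaks, at most 5 kb for 73.6% and 39.9%, and at most 100 kb for 95.5% and 81.4%. The next peak was itself broad for 454 of 1041 broad peaks (43.6%) and for 3.47% of narrow ones, and the median distance from a broad peak to the next broad one was 5995 bp (interval 4793 to 7288). A gap of at most 100 bp followed 183 broad peaks (17.6%), and in 110 cases the next peak was broad too. Inside the long runs the median gap was 1085 bp for broad and 1792 bp for narrow peaks, and outside them it was 2257 and 10310 bp. Where a peak caller splits one enriched stretch, the width of each piece and the gap depend on the split, and both are descriptions only.

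Gaps of 10 to 100 bp between broad peaks, 89 in all, had a median GC content of 42.9% (interval 36.4% to 45.7%), against 38.5% in windows of the same length at the centre of the peak before. A run of 10 or more A or T was in 3 of the 89 gaps and in 4 of the 89 windows.

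Broad peaks lay in introns about as often as narrow peaks. By the class of the list, 923 broad peaks (88.5%, interval 86.4% to 90.3%) were intronic against 87.5% of narrow peaks, a difference of +0.946 percentage points (Newcombe 95% interval -1.19 to +2.81). The sign differed between chromosomes and was positive on 10 of 14. Among peaks with a score of at least 50 the difference turned to -2.33 points (interval -4.67 to -0.287). By the same class, 60 broad peaks (5.75%) were intergenic against 7.64% of narrow peaks. The gene annotation of the reference did not show broad peaks more often in genes, with 91.9% of broad and 92.8% of narrow centres in a protein-coding gene and 87.4% and 88.2% in its introns. The promoter class was rare among both, with 4 broad peaks (0.384%), at DYRK1A, ERVFRD-1, MIR32 and GPR21, against 0.270% of narrow ones. The start of a protein-coding gene was held by 2 of the 1043 (0.192%) and by 0.0411% of narrow peaks. With their greater length, 22.2% of broad peaks touched a coding gene's exon against 10.5% of narrow ones, yet exons made up 43.1 bases per kb of broad and 46.0 per kb of narrow peak.

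Within genes, broad cover stepped up some way past the start site. In the 211 protein-coding genes of at least 50 kb that held a broad centre, broad peaks covered 0.239% of the 2.5 kb before the start, 1.52% of the first 2.5 kb and 10.1% of the next 2.5 kb. Bins further upstream held up to 1.53%, as much as the first 2.5 kb of the gene. The cover then stayed between 6.90% and 9.64% out to 50 kb. Narrow peaks of the same genes rose over the same step, from 0.0980% to 5.15%. At the gene end, broad cover was 3.66% in the last 2.5 kb, 1.90% in the first 2.5 kb beyond and 0.762% in the next. These genes were chosen for a broad peak inside them, so more cover inside than outside is set by the choice, but the step between the first and the second 2.5 kb is not. Some of the 211 entries overlap, as ATF7 and ATF7-NPFF do, so 1 peak can count in several. The start is the outermost annotated one of each gene, and distances depend on it. The first broad base lay within 1 kb of the start in 1 of the 211 genes, CDKAL1, with a median distance of 21.9 kb. Of 908 broad centres in a single coding gene, 32.0% were in the first of 4 equal parts of its length and 15.4% in the last, and for narrow peaks the shares were 28.6% and 19.0%.

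**Figure D2:**
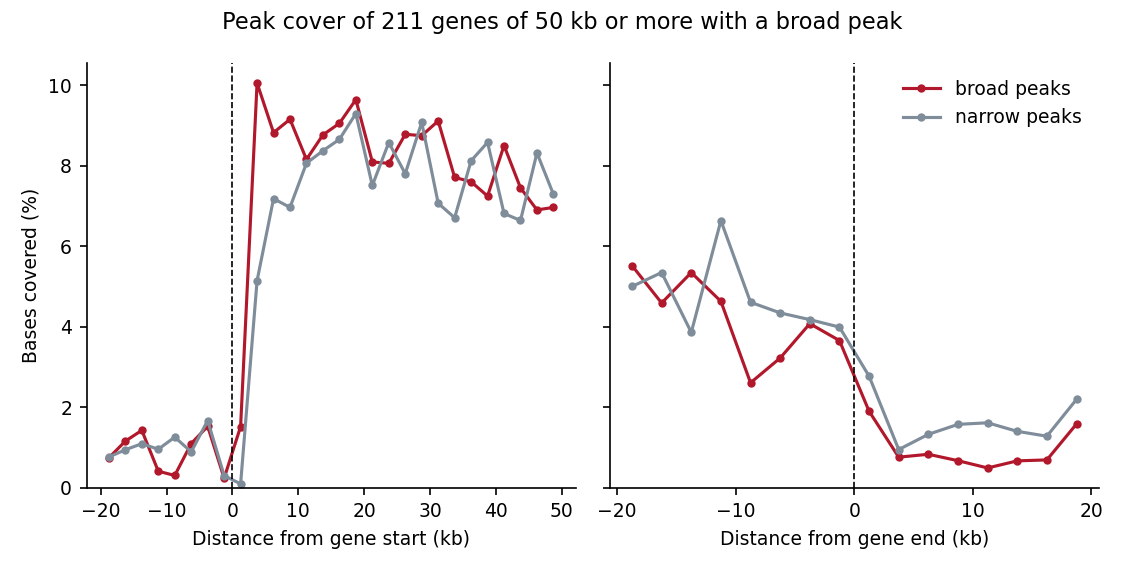
Points give the percentage of bases covered by broad (red) and narrow (grey) peaks in bins of 2.5 kb, averaged over 211 protein-coding genes of at least 50 kb that hold a broad peak centre, by distance from the gene start (left) and gene end (right) in kb. Cover is low in the first bin after the start and steps up in the next, to 10.1% for broad peaks, and it falls past the gene end.

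Broad peaks named 345 genes, of the 5011 named by any peak (6.88%), and 284 of the 345 were protein-coding. A single broad peak was found for 173 genes, while 22 genes with at least 10 shared 320. KANSL1 had the most, 31 of its 60 peaks. ANKRD17, an ankyrin repeat protein, had 24 of 41, KDM2A 21 of 22, and DYRK1A, a dual-specificity kinase, 20 of 65. ELL2, an elongation factor of RNA polymerase II, had 17 of 28. CDKAL1 and CTNNAL1, an alpha-catenin relative, had 16 each, CHKA, the first enzyme of phosphatidylcholine synthesis, 15 of 15, TAOK1, a kinase of the MAPK pathway, 14 of 35, and PACS1, a sorting adaptor, 13 of 17. In 45 of the 345 genes every peak was broad.

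The gene named was not always the gene that held the peak. Of 959 broad peaks centred in a protein-coding gene, 700 (73.0%) were named for it, much as for narrow peaks (70.6%), and 94 broad peaks were named for a microRNA gene. Of 3944 protein-coding genes that held any peak centre, 279 held a broad centre by position. NF1 held 33, against 11 under its name, and TMEM245 held 24, among them peaks named for MIR32.

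Some genes were covered over much of their length. Of 266 genes of at least 20 kb with a broad centre, 54 had at least 10% of the body in broad peaks and 5 had at least 50%. These 5 were RTN3 (67.0%), ATL3 (61.6%), E2F3 (60.3%), KDM2A (50.9%) and ELL2 (50.1%). Narrow peaks added 0% in RTN3, ATL3 and E2F3, 0.667% in KDM2A and 11.8% in ELL2. The median gene of the 266 had 2.69% of its body in broad peaks.

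The fixed gene lists were compared by how many of their members with any peak had a broad one, beside 6.88% over all 5011 genes. Of the androgen receptor cofactors and lineage factors, 3 of 10 did. GRHL2, a grainyhead factor of epithelial cells, had 7 broad peaks with a highest score of 145, NCOA2, a steroid receptor coactivator, had 3 with a highest score of 136, and PIAS1, a SUMO ligase, had 1 of 1432 bp with a score of 119. Of the ETS factors 1 of 7 did. This was SPDEF, an ETS factor of prostate and other secretory epithelia, with 4 broad peaks, and the strongest of them (score 106) was centred at -50651 bp from its start. SPDEF had 0 broad centres in its own body and was named as the nearest start, and that strongest peak lies in an intron of ILRUN. Of 9 androgen-driven prostate genes with a peak, 12 PRC2 and PRC1 genes and 4 SWI/SNF genes, 0 had a broad peak. The fixed PRC1 list lacks RYBP and YAF2, related PRC1 subunits. RYBP had 1 broad peak of 1042 bp with a score of 118, and YAF2 held 1 of 1290 bp with a score of 162, named for GXYLT1. The abundant nuclear RNAs and housekeeping genes had no peak of any width among 12.

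Genes the study examined stood near the share of all genes or rested on few members. Of its genes with ChIP assays, 1 of 3 with a peak had a broad one, CTNNA1, the alpha-catenin of adherens junctions, with 4 broad peaks under its name up to a score of 86.8 and 6 centred in its body up to 110. Among the ERG/EZH2 targets listed as enhanced in castration-resistant tumors, 18 of 196 had a broad peak (9.18%, interval 5.89% to 14.0%), and among those listed as attenuated 18 of 194 did (9.28%, interval 5.95% to 14.2%). Both intervals include 6.88%. By the gene named, the highest broad scores of the enhanced list were at EPB41L4B (159), SPOCK1 (154), SRPK2 (154), AP3S1 (142) and RALGAPA2 (138). Those of the attenuated list were at IGF1R, the receptor of insulin-like growth factor (235), ELL2 (226), PACS1 (199), HOMER2 (169) and RHOBTB3 (151). By position, 20 of 221 enhanced genes with a peak centre in the body held a broad one (9.05%, interval 5.93% to 13.6%). Of 199 such attenuated genes, 20 did (10.1%, interval 6.60% to 15.0%), beside 279 of all 3944 protein-coding genes with a peak centre. The highest score in an enhanced gene was then 257, in TPD52, from a peak named for another gene, and the 5 highest attenuated genes were the same. The direction of a list comes from tumors and not from these cells.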

How the data were processed

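The ChIP-seq data hold 1 mERG library and 1 control library. Per the file headers, the deposited peaks were called with MACS on hg19 and annotated with HOMER, and the submitters' processing notes also name Bowtie2 and Picard. The MACS version and threshold are not given in the sources used here. The deposited score of each peak is the authors' own value with no scale stated, and the deposited positions and distances to the TSS are in bp. Read depth is unknown.

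Width was end minus start plus 1. The members and gene lists were chosen with earlier results of these data known. Named genes were those of the 10 widest and the 10 highest-scoring broad peaks, the 10 with most broad peaks (PACS1, with 13, ties with TTC37 and MIR32), list members with a broad peak (for ERG/EZH2 targets, 5 per direction by score) and those next to the limit; SLK, NF1, TMEM245, STX3, RYBP, YAF2, TPD52, NEDD9, ILRUN, genes of runs and genes of the promoter class were added after their values were seen. Gene names written as dates (8) were restored through Entrez identifiers. Sequences came from GRCh37, the build of hg19, and gene bodies from GENCODE release 44 on GRCh37; 5 broad peaks on unplaced sequences had none. Symbols were matched through RefSeq names. Shares have Wilson, differences Newcombe and medians order-statistic 95% intervals, with no p-values. Alternatives varied the width, score, chromosomes, location, gap and gene rule. The statistics were tested on simulated data. Software used was Matplotlib 3.10.9, pysam 0.24.0, SciPy 1.17.1, pandas 2.3.3, NumPy 2.4.6 and Python 3.11.15.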

Additional observations from a re-analysis of the deposited data

How the results depend on the processing

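Of 38 alternatives, 23 stayed within the interval of the value or, for counts, within 1.5 times of it, and 15 did not. With a minimum width of 2000 bp there were 246 broad peaks, naming 97 genes, with a median score of 126, a median GC content of 40.3%, 75.6% on the 5 chromosomes with most, and an intron difference of -1.37 percentage points; at 5000 bp there were 46. These peaks are a subset of the 1043, so the lower counts follow from the limit. Among peaks with a score of at least 50, the median score was 87.4, the median gap 3520 bp against 24903 bp for narrow peaks, and the intron difference -2.33 points. The median gap was 3064 bp from centre to centre and 371 bp to the nearest peak on either side, each below the value of narrow peaks (9139 and 3430 bp). In the central 200 bp the median GC content was 38.5% and GGAA 10 per kb, as in narrow peaks. So short a window allows only coarse values of GGAA per kb, so equal medians say little. Pooled over the windows, GGAA was 9.72 per kb in broad and 9.82 per kb in narrow peaks. Without the 3 runs whose peaks are all broad, an alternative chosen after seeing the data, 72.3% lay on the 5 chromosomes with most. The cause of the other shifts was not tested. The shorter gap of broad peaks kept its direction under each alternative run, and the intron difference did not.

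No paired analysis was possible because there is 1 ChIP library and 1 control library. With 1 library and unknown depth, how far width and score would vary in a second experiment cannot be given, and the list alone does not tell a broad bound region from several merged sites.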

Other observations

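The numbering of the peaks runs to 18276, and 206 numbers are not in the list. Within their chromosomes, 98 peaks stand out of number order, and 7 narrow peaks and 0 broad ones overlap the next peak. How these came about was not tested.

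Wider broad peaks differed from those just over the limit in GC content and in their place in runs. The median GC content was 38.9% (interval 38.5% to 39.3%) for 623 peaks under 1500 bp and 41.2% (interval 40.4% to 42.8%) for the 46 of at least 5000 bp. Of these 46, 28 lay in the 3 runs whose peaks are all broad, so the value rests largely on few loci. Of the narrowest class 70.6% lay in long runs, and of the widest 91.3%. A coding gene's exon was touched by 18.6% and 43.5%, as greater length would also give. The 46 widest named 27 genes on 10 chromosomes or unplaced sequences.

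Broad peaks also lay on sequences without a place on the chromosomes, where 5 of 33 peaks were broad, beside 5.77% of all peaks. These were 3 of 4 peaks on Un_gl000219 and 2 of 8 on 7_gl000195_random, so the count rests on few sequences. The widest of these was 5803 bp with a score of 132, named for LOC389831.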
